A study of Mus musculus with 6 samples.

Results

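The NRF2 antioxidant genes are 10 genes of the KEAP1-NRF2 stress pathway, and they were measured by RNA-seq in primary mouse cardiomyocytes. They are Nfe2l2, Keap1, Gclc, Gclm, Gsr, Txnrd1, Srxn1, G6pdx, Nqo1 and Hmox1. They were taken by name, not by a threshold on values, as the rows whose Ensembl gene ID carries one of these symbols in GENCODE M21. All 10 were found among the 54532 genes of the table, and all 10 passed the filter on low values (a mean of 0.5 FPKM or more; FPKM counts fragments for each kilobase of a gene's exons, relative to library depth), which left 13794 genes.

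The cells came from hearts of neonatal mice with a Cre-inducible allele of Rit1. RIT1 is a small GTPase of the RAS family that is mutated in Noonan syndrome, and recombination makes this allele express its M90I form. On day 3 after isolation they were infected with adenovirus encoding GFP alone (AdGFP, control, labelled Rit1 +/+) or GFP and Cre (AdCre, labelled Rit1 M90I/+). There were 3 samples of each, which the labels call biological replicates 1 to 3 without saying what a number marks. Both groups carry the inducible locus and an adenovirus, and no cells lacking the locus received AdCre here, so expression of M90I and presence of Cre cannot be told apart. Wells were seeded with cells of about 1 heart, after a preplating step that leaves behind cells that adhere fast.

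Libraries held from 25.3 M to 32.4 M reads (M, megareads), as worked back from FPKM and exon lengths. Rit1 itself was at 7.66 to 9.01 FPKM in AdGFP and 8.90 to 9.58 FPKM in AdCre (adjusted p = 0.840, limma), a gene level that does not separate the alleles. Markers of cardiomyocytes were present in every sample, and so were those of fibroblasts, endothelial cells, mural cells, the epicardium and macrophages. In such bulk RNA, fewer cells of a type and less RNA per cell cannot be told apart.

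NRF2, the protein of Nfe2l2, is a transcription factor that KEAP1 captures and hands to a CUL3 ubiquitin ligase for destruction. Oxidants and electrophiles modify cysteines of KEAP1, NRF2 then accumulates, pairs with a small MAF protein and binds antioxidant response elements in the DNA of its target genes. The targets make and recycle glutathione, reduce thioredoxin, supply NADPH and clear quinones and heme. The pathway is known in the heart for protection against oxidative injury, and because its switch acts on protein stability, the mRNA of Nfe2l2 is not a measure of NRF2 activity.

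To show the element that links these genes, promoters from RefSeq (GRCm38.p6, 250 bases before to 50 after each start) were searched on both strands for TGACNNNGC, the core of the antioxidant response element. A window was found for 7 members, and 5 of these held a match, namely Nfe2l2, Gclm, Txnrd1, Srxn1 and G6pdx, while Nqo1 and Keap1 held none in this stretch. Of all 32851 windows, 12.39% held a match, as did 13.99% of the 27025 genes with a window and 7 of 25 wider NRF2 targets. A match describes letters only and is not evidence of a bound site. Each stretch below is on the strand of its gene with the match in capitals, and capitals reading GCNNNGTCA are a match on the opposite strand. The matches lie 240 bases before the start in Nfe2l2 (chr2:75704850-75704913, minus strand), 134 before it in Gclm (chr3:122245378-122245476, plus strand) and 92 before it in Txnrd1, in 1 of its 3 windows (chr10:82859069-82859167, plus strand). Those of G6pdx and Srxn1 lie 57 bases before the start (chrX:74428884-74428982, minus strand) and 28 after it (chr2:152105542-152105570, plus strand).
Nfe2l2: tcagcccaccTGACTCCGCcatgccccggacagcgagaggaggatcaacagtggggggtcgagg
Gclm: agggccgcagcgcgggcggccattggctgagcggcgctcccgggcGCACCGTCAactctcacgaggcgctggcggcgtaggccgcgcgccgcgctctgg
Txnrd1: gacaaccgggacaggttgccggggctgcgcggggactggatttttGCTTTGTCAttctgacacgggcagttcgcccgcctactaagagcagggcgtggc
G6pdx: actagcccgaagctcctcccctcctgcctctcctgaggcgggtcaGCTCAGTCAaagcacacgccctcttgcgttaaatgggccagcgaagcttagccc
Srxn1: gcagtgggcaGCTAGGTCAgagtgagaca

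None of the 10 genes passed the test between AdCre and AdGFP (limma on log2(FPKM + 0.1), Benjamini-Hochberg adjusted p under 0.05 over all genes), where 0.00725% of all genes did. At an unadjusted p under 0.05 there was 1 member, Keap1, against 10.2% of all genes. Log2 fold changes of AdCre over AdGFP were above 0 for 3 members and below 0 for 7, with a median of -0.04, beside -0.002 over all genes tested, and rescaling to TPM put Hmox1, Gsr and G6pdx above 0 as well. With the replicate number fitted as a block, 0 members passed, where 6.15% of all genes did. The 2 with an unadjusted p under 0.05 were Keap1 and Nfe2l2, beside 3414 of all 13794 genes. With voom on the reads worked back, 0 members passed without the block, where 0 of all genes did. With voom and the block 0 members passed, where 12.4% of all genes did. In that fit 3 members had an unadjusted p under 0.05, beside 3881 of all genes.

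**Figure D1:**
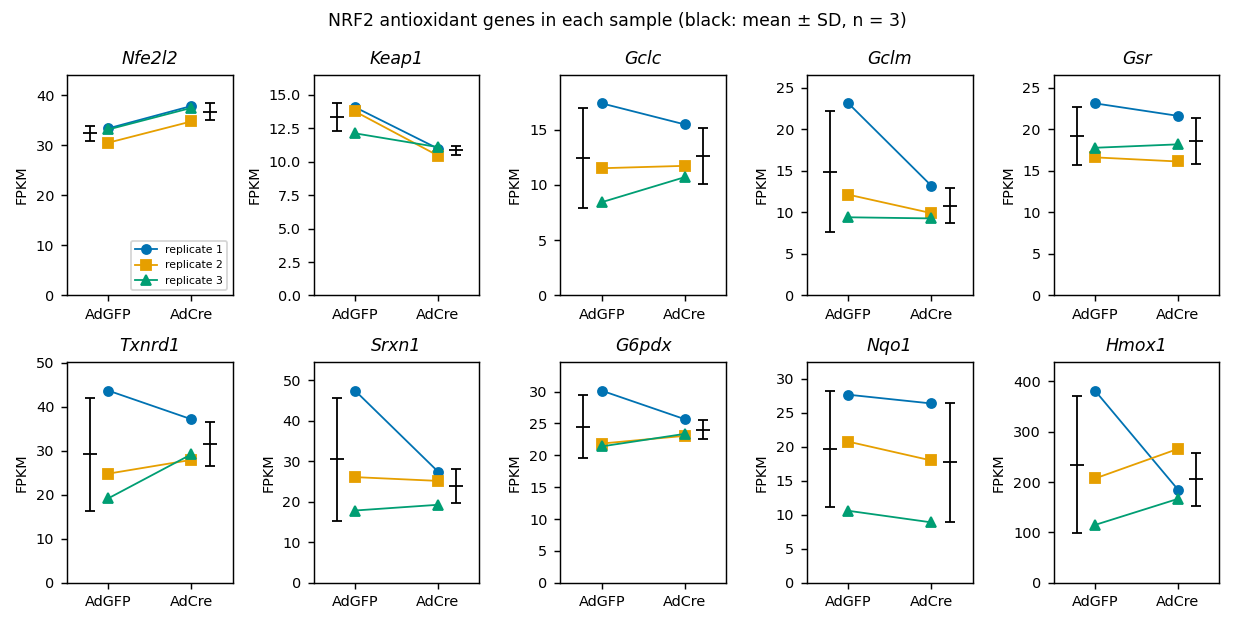
Level of each gene in FPKM (vertical axis of each panel, from 0) in AdGFP and AdCre, with lines joining samples of the same replicate number and black bars for the mean ± SD of 3 samples. Groups do not overlap for Nfe2l2 and Keap1, while the blue replicate 1 points lie at the top in the panels of Gclc, Gclm, Gsr, Txnrd1, Srxn1, G6pdx and Nqo1.

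The regulator and its inhibitor were the only members whose groups did not overlap, in opposite directions. Nfe2l2 (ENSMUSG00000015839, GRCm38 chr2:75675513-75704641, minus strand) was at 33.4, 30.6 and 33.2 FPKM in AdGFP 1 to 3 and at 37.9, 34.8 and 37.5 FPKM in AdCre 1 to 3. Every AdCre sample was above every AdGFP sample, which 7.36% of all genes showed, and the AdCre to AdGFP ratio was 1.13, 1.14 and 1.13 in the 3 same-numbered pairs. The log2 fold change was 0.18 ± 0.11 (SE) with a 95% interval from -0.07 to 0.43 (adjusted p = 0.641, limma), and from 0.01 to 0.35 with the block (adjusted p = 0.180). By an exact two-sided permutation test the difference had p = 0.1, the smallest that 3 samples against 3 can give.

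Keap1 (ENSMUSG00000003308, chr9:21229730-21239361, minus strand) encodes the adaptor that delivers NRF2 to the ligase. It was at 14.1, 13.8 and 12.1 FPKM in AdGFP and at 10.98, 10.5 and 11.1 FPKM in AdCre. Every AdCre sample was below every AdGFP sample, as in 8.02% of all genes. The log2 fold change was -0.29 ± 0.11 (SE), with a 95% interval from -0.56 to -0.03, an unadjusted p of 0.0350 and an adjusted p of 0.448 (limma), or 0.120 with the block. A gene on the opposite strand overlaps 10.9% of its exonic sequence, and whether counting used strand is not given in the sources used here.

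Glutathione synthesis and recycling showed no difference beyond the spread, and replicate 1 was high in both groups. Gclc (ENSMUSG00000032350, chr9:77754535-77794485, plus strand), the catalytic subunit of glutamate-cysteine ligase, was at 17.4, 11.5 and 8.43 FPKM in AdGFP and at 15.5, 11.7 and 10.7 FPKM in AdCre. Its groups overlapped, and the log2 fold change was 0.07 with a 95% interval from -0.58 to 0.72 (adjusted p = 0.975, limma). Gclm (ENSMUSG00000028124, chr3:122245557-122270732, plus strand), the modifier subunit of the same enzyme, was at 23.1, 12.1 and 9.40 FPKM in AdGFP and at 13.2, 9.90 and 9.27 FPKM in AdCre. AdCre was lower in all 3 pairs of Gclm, by log2 differences of -0.80, -0.29 and -0.02, but the groups overlapped and the fold change of -0.37 had an interval from -1.15 to 0.40 (adjusted p = 0.787, limma). Without AdGFP 1 the fold change of Gclm was -0.0020, and without AdGFP 3 it was -0.65. Of the 50-base words in transcripts of Gclm, 3.92% also occur in other genes. Gsr (ENSMUSG00000031584, chr8:33652523-33698163, plus strand), the reductase that regenerates glutathione with NADPH, was at 23.1, 16.6 and 17.8 FPKM in AdGFP and at 21.6, 16.1 and 18.2 FPKM in AdCre. In Gsr the same-numbered samples lay close together, and the log2 fold change was -0.04, from -0.44 to 0.37 (adjusted p = 0.977, limma).

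In the thioredoxin branch and in NADPH supply the groups overlapped as well. Txnrd1 (ENSMUSG00000020250, chr10:82833951-82897712, plus strand), the cytosolic thioredoxin reductase, was at 43.7, 24.8 and 19.2 FPKM in AdGFP and at 37.2, 27.9 and 29.2 FPKM in AdCre. Its log2 fold change was 0.18, from -0.52 to 0.88 (adjusted p = 0.907, limma), with pair 1 lower and pairs 2 and 3 higher in AdCre. Srxn1 (ENSMUSG00000032802, chr2:152105516-152111376, plus strand), which repairs overoxidized peroxiredoxins, was at 47.4, 26.1 and 17.8 FPKM in AdGFP and at 27.4, 25.1 and 19.2 FPKM in AdCre. AdGFP 1 stood far above the other 5 samples of Srxn1, and the log2 fold change of -0.24 had an interval from -1.06 to 0.57 (adjusted p = 0.889, limma). G6pdx (ENSMUSG00000031400, chrX:74409483-74429194, minus strand), the first enzyme of the pentose phosphate pathway and a source of NADPH, was at 30.1, 21.8 and 21.4 FPKM in AdGFP and at 25.7, 23.0 and 23.4 FPKM in AdCre. Its log2 fold change was -0.01, from -0.38 to 0.37 (adjusted p = 0.995, limma), and the groups overlapped. A gene on the opposite strand overlaps 13.6% of the exonic sequence of G6pdx, and 6.46% of its 50-base words also occur in other genes, most of them in G6pd2.

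Of the detoxifying enzymes, both had overlapping groups and a wide spread over samples. Nqo1 (ENSMUSG00000003849, chr8:107388225-107403206, minus strand), the quinone reductase often read as the index target of NRF2, was at 27.6, 20.7 and 10.6 FPKM in AdGFP and at 26.4, 18.0 and 8.88 FPKM in AdCre. The highest sample was 3.11 times the lowest, but same-numbered samples were alike, and AdCre was lower in all 3 pairs, by log2 differences of -0.07, -0.21 and -0.25. The log2 fold change of -0.17 had a 95% interval from -1.29 to 0.94 without the block (adjusted p = 0.953, limma) and from -0.37 to 0.02 with it (adjusted p = 0.245). Hmox1 (ENSMUSG00000005413, chr8:75093621-75100589, plus strand), the inducible heme oxygenase, was the most abundant member, at 382, 207 and 115 FPKM in AdGFP and 185, 266 and 167 FPKM in AdCre. AdCre was at 0.485 of AdGFP in pair 1 and at 1.28 and 1.45 times AdGFP in pairs 2 and 3. The log2 fold change of -0.05, from -1.05 to 0.96 (adjusted p = 0.989, limma), is therefore a mean of opposite differences, and was 0.45 with pair 1 left out and the block fitted (adjusted p = 0.0521).

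**Figure D2:**
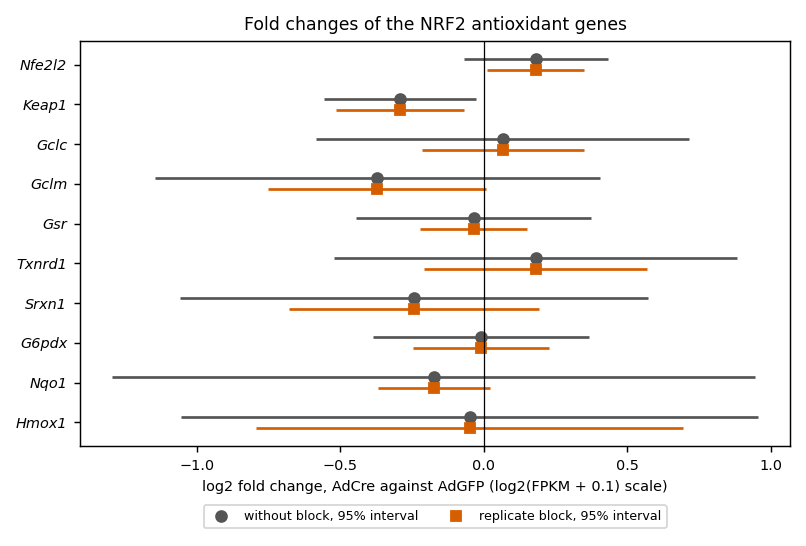
Log2 fold change of AdCre over AdGFP for each gene on the log2(FPKM + 0.1) scale (horizontal axis), with 95% intervals from limma without the block (grey) and with the replicate number as a block (orange). All intervals span 0 except Keap1 in both fits and Nfe2l2 with the block, before any adjustment for the number of genes tested.

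In all, 4 of the 10 genes differed in the same direction in all 3 pairs, Nfe2l2 upward and Keap1, Nqo1 and Gclm downward, beside 48.4% of all genes. The fewest reads behind a member in a sample were 382, for Nqo1, where counting error alone is 5.12%.

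Most of the variation of the 8 effector genes (the members other than Nfe2l2 and Keap1) went with the replicate number, not with the virus. The replicate number held between 57.0% and 97.6% of the sum of squares of each effector gene over the 6 samples, with a median of 76.1%, beside a median of 59.2% over all genes tested. Group held a median of 1.47% for the effectors and 16.0% for all genes. The replicate number has more levels than the group, so variation unrelated to either would on average also give it the larger share. Nqo1 was at 97.6% and Gsr at 97.2% for the replicate number, levels that 1.68% and 2.17% of all genes reached or passed. The levels of Gclc, G6pdx, Txnrd1, Srxn1, Gclm and Hmox1 were reached or passed by 12.0%, 28.5%, 32.2%, 32.5%, 37.2% and 52.4% of all genes. Nfe2l2 and Keap1 were the reverse, with 71.9% and 80.7% of the sum of squares between the groups.

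**Figure D3:**
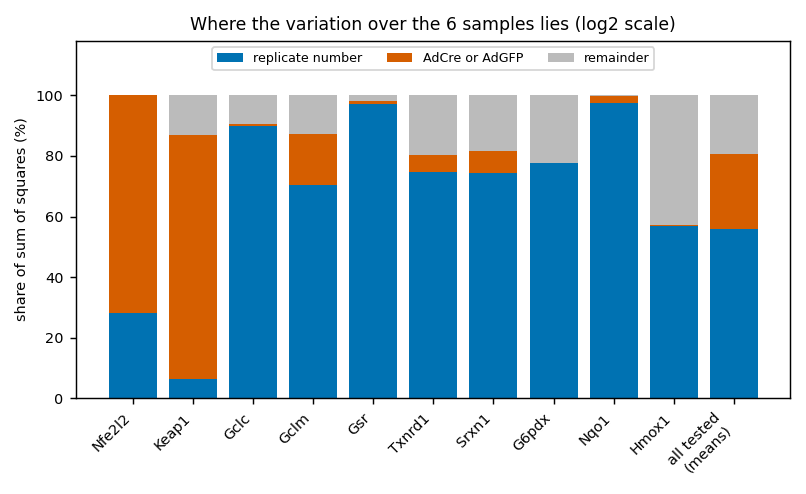
Share of the sum of squares of log2(FPKM + 0.1) over 6 samples, in percent, that went with the replicate number, with the group (AdCre or AdGFP) and with neither, for each gene and as the mean over all genes tested. The replicate number takes the longest segment in all 8 effector genes, and the group in Nfe2l2 and Keap1.

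AdGFP 1 was the highest of the 6 samples for all 8 effector genes, beside 22.9% of all genes. Both replicate 1 samples were above the other 4 samples for 7 of the 8, all but Hmox1, beside 19.4% of all genes. After rescaling to TPM, which evens out the sum of the values in each sample, these counts were 6 and 6 of 8, beside 9.22% and 7.60% of all genes. The FPKM of AdGFP 1 summed to the highest total of the 6 samples (339821, beside 270136 to 306069 in the others). AdGFP 1 was the highest of the 3 AdGFP samples for 8 of 8 effectors under each of the settings tried (pseudocount 1, TPM, median centring, quantile normalization and removal of the scaling in the deposited values), beside 41.3% of all genes as deposited and 23.0% with TPM. AdCre 1 was the highest of the 3 AdCre samples for 7 of 8 under these settings except TPM, where it was so for 6, beside 39.2% of all genes as deposited and 24.6% with TPM.

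Markers of other cells moved with the replicate number too. The 8 macrophage markers summed to 49.4 and 87.7 FPKM in the replicate 1 samples and to between 207 and 342 FPKM in the others. Of the 7 that passed the filter, 6 were lower in both replicate 1 samples than in every other sample, and Cd163, the marker below the filter, was at 0 in AdGFP 2. The 8 fibroblast markers summed to between 2272 and 2589 FPKM in replicate 1 and between 3043 and 4644 FPKM elsewhere, with 6 of 8 lower in both replicate 1 samples. The 6 mural cell markers summed to 84.4 and 88.4 FPKM against 130 to 143 FPKM, with 4 of 6 lower in both. The sum of the 6 epicardial and mesothelial markers ranged from 117 to 174 FPKM in replicate 1 and from 92.1 to 258 FPKM in the others. Krt19 alone was at 133 FPKM in AdGFP 1, its highest sample, and 74.2 FPKM in AdCre 1. Upk3b, Msln, Wt1, Lrrn4 and Upk1b were instead highest in AdGFP 3. The sum of the 8 endothelial markers ranged from 90.7 to 134 FPKM in replicate 1 and from 109 to 197 FPKM in the others. The part of these cells in the levels of the NRF2 genes was not tested.

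**Figure D4:**
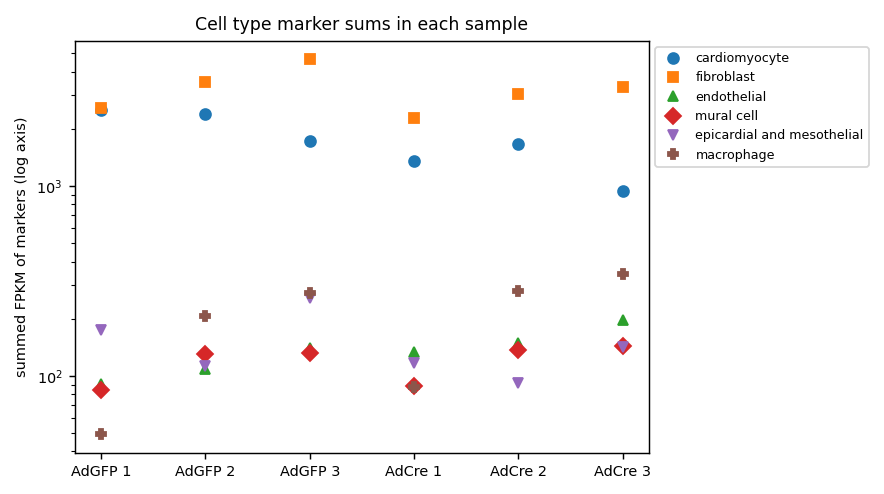
Summed FPKM (log axis) of the marker genes of 6 cell types in each of the 6 samples. Macrophage, fibroblast and mural cell sums are lowest in AdGFP 1 and AdCre 1, and the cardiomyocyte sum is lower in each AdCre sample than in each AdGFP sample.

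Between the groups, the 8 cardiomyocyte markers summed to between 1730 and 2527 FPKM in AdGFP and between 942 and 1657 FPKM in AdCre. All 8 had a fold change below 0, and 0 passed without the block (5 at an unadjusted p under 0.05, beside 10.2% of all genes) and 6 with it, as lower, beside 3.51%. The ranges of the other sums overlapped between AdGFP and AdCre. Fold changes were above 0 for 8 of 8 endothelial and 7 of 7 macrophage markers tested, beside 6842 of all 13794 genes. They were below 0 for 7 of 8 fibroblast and 5 of 6 epicardial markers, and mural cell markers split 3 and 3. No marker of these other cells passed without the block (3 endothelial markers had an unadjusted p under 0.05), and with it 3 fibroblast and 1 epicardial marker were lower and 4 endothelial and 2 macrophage markers higher in AdCre, beside 3.51% of all genes lower and 2.64% higher. Their part in the fold changes of Nfe2l2, Keap1 and the other members was not tested.

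The differences within pairs were not alike for the effector genes. In pair 1 all 8 were lower in AdCre than in AdGFP, with a median log2 difference of -0.23 (49.4% of all genes were lower). This count follows from AdGFP 1 being the highest sample for all 8 and is not a further observation. In pair 2, 4 of 8 were lower (median -0.008), beside 52.2% of all genes, and in pair 3 only Nqo1 and Gclm were (median 0.12), beside 49.7%. After rescaling to TPM, 6, 2 and 1 were lower in pairs 1 to 3, beside 33.6%, 39.8% and 44.6% of all genes. The effectors also spread more among AdGFP samples, where the median log2 range was 1.23, than among AdCre samples, where it was 0.51 (all genes, 0.44 and 0.41). The range was wider in AdGFP for 7 of 8, all but Nqo1, beside 54.9% of all genes. Without AdGFP 1 the median AdGFP range of the effectors was 0.41 (all genes, 0.20), though a range over fewer samples cannot be larger. With AdCre 1 left out as well, the medians were 0.41 in AdGFP and 0.15 in AdCre (all genes, 0.20 and 0.22). The range was then wider in AdGFP for 6 of 8, beside 46.2% of all genes.

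**Figure D5:**
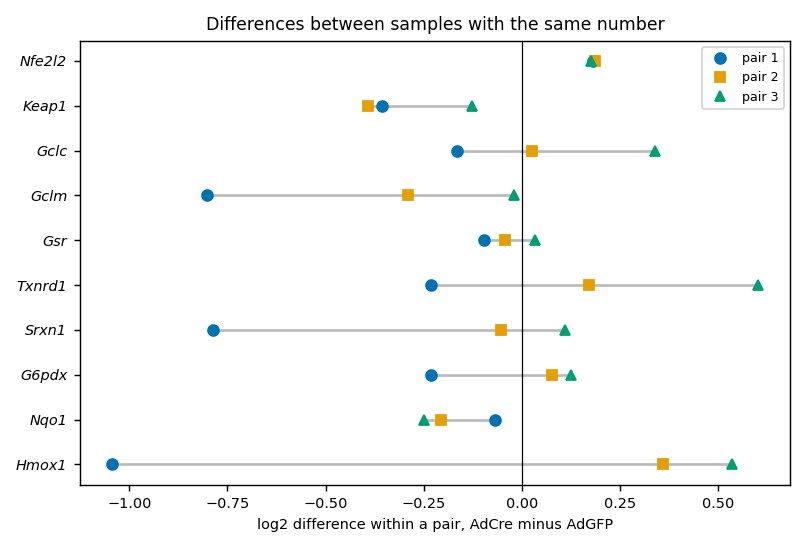
Log2 difference of AdCre from AdGFP in each same-numbered pair, for every NRF2 antioxidant gene. Nfe2l2 stays near 0.18 in the 3 pairs, while the 8 effector genes are all below 0 in pair 1 and Hmox1 runs from -1.04 to 0.54.

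A wider list of 28 NRF2 targets was read in the same way, and 26 passed the filter (Gpx2 and Gsta3 did not). Fold changes were above 0 for 13 and below 0 for 13, with a median of -0.006. Without the block 0 passed, beside 0.00725% of all genes. At an unadjusted p under 0.05 there were 2 of the 26 (Htatip2 and Tkt), beside 10.2% of all genes. With the block 0 passed as higher and 3 as lower, beside 2.64% and 3.51% of all genes. This balance turned with the processing. With the block and TPM 2 passed as higher (Gstp1 and Tkt) and 1 as lower (Gsta4), beside 3.9% and 2.44% of all genes. With the block and voom 6 passed as higher (Fth1, Gstm1, Gstp1, Prdx1, Tkt and Ugdh) and 2 as lower (Gsta4 and Slc40a1), beside 7.15% and 5.22%. Gstm1 and Gstp1 share 18.9% and 33.7% of their 50-base words with other genes. Of the 5 sublists, glutathione use and cystine import had 2 of 8 above 0 (median -0.13), thioredoxin and peroxiredoxin 2 of 2 (0.22), and NADPH supply 3 of 4 (0.04). Heme and iron genes had 2 of 4 above 0 (0.08), and detoxification and other targets 4 of 8 (0.08).

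The 3 that passed with the block were Gsta4, Slc40a1 and Htatip2. Gsta4, a glutathione transferase that clears lipid aldehydes, was at 15.4, 13.0 and 9.61 FPKM in AdGFP and 10.9, 9.11 and 5.64 FPKM in AdCre, a log2 fold change of -0.59 ± 0.28 (SE; adjusted p = 0.544 without and 0.0293 with the block, limma). Slc40a1, the iron exporter ferroportin, was at 2.17, 4.46 and 4.30 FPKM in AdGFP and 0.881, 2.97 and 2.71 FPKM in AdCre, a change of -0.81 ± 0.49 (adjusted p = 0.657 and 0.0485). Htatip2 was at 17.1, 19.6 and 17.1 FPKM in AdGFP and 12.7, 14.8 and 12.9 FPKM in AdCre, a change of -0.41 ± 0.12 (adjusted p = 0.340 and 0.0388). Each was lower in AdCre in every pair, and only in Htatip2 did the groups not overlap. Of the 10 fits with a block, Gsta4 passed in 6, Slc40a1 in 2 and Htatip2 in 2, and none of them passed with pair 2 or pair 3 left out. With pair 2 or pair 3 left out, only 1.08% and 0.00725% of all genes passed. Without a filter 0.0598% did, and without a trend 0. Those fits could therefore call few genes of any kind.

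In the other direction 4 of the 26 wider targets had every AdCre sample above every AdGFP sample, beside the 7.36% of all genes given above, and they are named after their values were seen. Prdx1, a peroxiredoxin, was at 118.2 to 132 FPKM in AdGFP and 134 to 159 FPKM in AdCre (log2 fold change 0.24, adjusted p = 0.597 without the block and 0.108 with it, limma). Tkt, the transketolase of the pentose phosphate pathway, was at 17.3 to 20.4 FPKM and 24.2 to 25.6 FPKM (0.36, adjusted p = 0.365 and 0.0626). Akr1b8, an aldo-keto reductase, had a change of 0.23 and Ugdh, which makes UDP-glucuronate, one of 0.24. None of these 4 passed without the block or with the plain block, but of the 10 fits with a block Tkt passed in 2, Prdx1 in 1, Ugdh in 1 and Akr1b8 in 0.

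The list of 13 regulators and partners of NRF2 had 4 fold changes above 0 and 9 below, with a median of -0.11. Without the block 0 passed and 1 had an unadjusted p under 0.05, Maff, beside 10.2% of all genes. With the block 2 passed, both higher, beside 2.64%. Maff, a small MAF protein that can partner NRF2, was at 10.2, 8.69 and 7.44 FPKM in AdGFP and 14.1, 12.1 and 9.73 FPKM in AdCre, a log2 fold change of 0.44 ± 0.18 (SE; adjusted p = 0.485 without and 0.0388 with the block, limma). Pgam5, a mitochondrial phosphatase that binds KEAP1, was at 6.74, 4.19 and 3.78 FPKM in AdGFP and 9.71, 6.02 and 5.60 FPKM in AdCre, a change of 0.53 ± 0.29 (adjusted p = 0.610 and 0.0316). A gene on the opposite strand overlaps 58.1% of the exonic sequence of Pgam5. Both were higher in AdCre in every pair while the groups overlapped, and both passed in 5 of the 10 fits with a block, in none that left out a pair. With pair 1, 2 or 3 left out, 5.6%, 1.08% and 0.00725% of all genes passed.

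A further list held 17 antioxidant genes outside the lists above, enzymes and the metallothioneins Mt1 and Mt2. Of these, 16 passed the filter (Nnt did not), and 7 had fold changes above 0 and 9 below, with a median of -0.04. None passed without the block or with the plain block, beside 0.00725% and 6.15% of all genes. Without the block 1 of the 16 had an unadjusted p under 0.05, beside 10.2% of all genes. Mt1, a metallothionein that binds zinc and scavenges radicals, was at 328, 257 and 272 FPKM in AdGFP and 105, 205 and 115 FPKM in AdCre, a log2 fold change of -1.07 ± 0.27 (SE; adjusted p = 0.292 without and 0.0605 with the block, limma). Its groups did not overlap, and neither did those of Gpx1, the main cytosolic glutathione peroxidase, at 177 to 195 FPKM in AdGFP and 211 to 244 FPKM in AdCre (0.27 ± 0.13, adjusted p = 0.544 and 0.0935). Cat, the catalase of peroxisomes, had overlapping groups at 36.8 to 55.9 FPKM and 31.8 to 43.6 FPKM (-0.33 ± 0.19, adjusted p = 0.643 and 0.153). Of the 10 fits with a block, Mt1 passed in 2 (pair 2 left out, and voom), Gpx1 in 1 (voom) and Cat in 0. The replicate number held a median of 77.9% of the sum of squares in this list, beside 76.1% in the effector genes, 69.7% in the regulators and partners, 55.8% in the wider targets and 59.2% in all genes. The wider targets were thus below all genes in this measure, and the effectors above.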

How the data were processed

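The authors deposited FPKM values for 6 samples. The submitters' processing notes name fastp, STAR 2.5, HTSeq 0.6.1 and build mm10. The annotation and strand setting are not given in the sources used here. Of 54532 gene IDs, 54495 matched GENCODE M21 (GRCm38) and 37 did not. FPKM times exon length gave whole reads (within 0.05) for 97.7 to 97.9% of genes under 500 reads.

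Samples were grouped by the labels. The values were fitted as log2(FPKM + 0.1) over genes averaging 0.5 FPKM or more in limma 3.58.1 (R 4.3.3, eBayes with trend), with Benjamini-Hochberg adjustment. Fold changes refer to that log2 scale, on which changes of weakly expressed genes come out too small. Single genes also had an exact permutation test. The fit was tested on simulated data. Nothing says that samples came from separate animals, so p-values measure the spread between these samples.

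Same-numbered samples deviated together from their group means (correlations across genes 0.568, 0.268 and 0.506; other combinations -0.497 to 0.036). The numbers were therefore taken as pairs, from the values alone, and fitted as a block in an alternative.

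Members and lists were chosen with earlier results of these data known. All members were named, and from each wider list the genes called with or without the block, or otherwise the 3 with the smallest p. Outside this rule, Prdx1, Tkt, Akr1b8, Ugdh, Fth1, Gstm1 and Gstp1 were named after their values were seen. Shared sequence was the share of 50-base words of a gene's transcripts found in other genes. Alternatives changed the pseudocount, filter, scaling, trend, samples and test.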

Additional observations from a re-analysis of the deposited data

How the results depend on the processing

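In 26 alternatives, 19 planned and 7 added after the data were seen, no member passed the test. Those without a block called between 0 and 0.029% of all genes, so a count of 0 members there says little. Those with a block called between 0 and 12.4% of all genes. Nfe2l2, Keap1 and Gclm kept their direction in each alternative, though Gclm came to -0.0020 without AdGFP 1. With each sample left out in turn, the median log2 fold change of the members ran from -0.27 to 0.14, Nqo1 from -0.57 to 0.25, Hmox1 from -0.48 to 0.39, Gclc from -0.18 to 0.34, Gclm from -0.65 to -0.0020, Gsr from -0.15 to 0.11, Txnrd1 from -0.0779 to 0.51, Srxn1 from -0.57 to 0.13 and G6pdx from -0.10 to 0.15. The median was 0.14 without AdGFP 1 and -0.27 without AdGFP 3. With all samples it was 0.0470 with TPM (all genes, 0.0866) and 0.0020 with quantile normalization (all genes, 0.0104). It was 0.0196 with the scaling removed (all genes, 0.0580), 0.0234 with voom (all genes, 0.0598) and -0.0296 with median centring (all genes, 0.0105).

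Rescaling to TPM, which moved the median of all genes by 0.09, turned Hmox1 to 0.0406, Gsr to 0.0534 and G6pdx to 0.0802, with or without the replicate block. Removal of the scaling in the deposited values turned them to 0.0132, 0.0260 and 0.0527 in both fits, voom to 0.0169, 0.0298 and 0.0536, and voom with the block to 0.0062, 0.0260 and 0.0484. Median centring turned G6pdx to 0.0035 in both fits, and quantile normalization turned Hmox1 to 0.0486 and G6pdx to 0.0197. With the replicate block and pair 1 left out, Hmox1 was 0.45, Srxn1 0.0285 and G6pdx 0.10, and with pair 3 left out Gclc was -0.07 and Txnrd1 -0.0307. The cause was not tested.

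The replicate block called 3 wider targets and 2 regulators. With the block and TPM these were 3 and 2 (875 of all genes, 6.34%), with median centring 2 and 2 (778, 5.64%), with the scaling removed 1 and 2 (702, 5.09%), with voom 8 and 2 (1706, 12.4%), and without pair 1 the wider count was 1 (772, 5.6%). Of these wider calls, 2 of 3 with TPM and 6 of 8 with voom were higher in AdCre, against 0 of 3 with the plain block. Other antioxidant genes called were 1 with the block and pair 2 left out (Mt1) and 2 with the block and voom (Mt1 and Gpx1). The block called 848 of all genes, but 149 without pair 2, 1 without pair 3, 17 without a filter and 0 without a trend (3122 at an unadjusted p under 0.05). It changed no call of a member. Counting error in the sample with the fewest reads ran from 1.42% for Hmox1 to 5.12% for Nqo1, and a difference within a pair carries that of both samples.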
